A study of Mus musculus with 6 samples.

Results

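Integrins and laminins, the receptors and the ligands of cell attachment to matrix, were measured in mouse gastrointestinal stromal tumours after treatment with imatinib or vehicle. The genes were found by name among the 31492 rows of the deposited gene-level table: rows whose name starts with ITGA or ITGB and a digit, or with LAMA, LAMB or LAMC and a digit, and the rows ITGAL, ITGAM, ITGAV and ITGAX, with Itga8 left out. This gave 39 genes, of which 24 encode integrin chains, 11 laminin chains, and 4 other proteins whose older names start with Itgb (Itgb1bp1, Itgb1bp2, Eif6 and Nmrk2). Gastrointestinal stromal tumour is a soft tissue tumour thought to arise from the interstitial cells of Cajal, which pace gut contractions. Imatinib inhibits the kinases KIT, ABL and the PDGF receptors.

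All 6 samples came from C57Bl/6 mice with the genotype Kit V558Δ/+, so vehicle and drug groups share the activating Kit allele, and all mice were 6 weeks old. Imatinib (3 samples) or its vehicle (3 samples) had been injected into the peritoneum, and the RNA of each tumour sample was read on 1 Illumina bead array. The labels do not give the dose or the length of treatment, nor whether each sample is from another animal. The p-values therefore rest on the spread between these samples, which may be technical. Between 45.7% and 47.3% of the probes on an array were detected above the negative controls, the median bead number of a probe was 43, and 2 arrays correlated at 0.915 to 0.986 over the 14713 genes tested. Kit, the receptor that drives these tumours, had a log2 signal of 13.47 to 14.47 on the 6 arrays, and Etv1, a transcription factor of Cajal cells, 12.73 to 13.46. The 10 epithelium markers (keratins, claudins, Epcam, Cdh1, Vil1 and Elf3) and 9 of 10 smooth muscle markers were detected too, so markers of the gut wall were present beside those of the tumour. In RNA of whole tissue, fewer cells of a type and less RNA per cell cannot be told apart.

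An integrin is a pair of an alpha and a beta chain that spans the membrane and ties the matrix, or a counter-receptor on another cell, to the actin cytoskeleton. Alpha chains set much of the ligand choice: some bind collagen, some laminin, some the RGD sequence of fibronectin and vitronectin, and those of leukocytes bind adhesion molecules of the immunoglobulin family. Laminins are trimers of an alpha, a beta and a gamma chain and form the sheet of the basement membrane that underlies epithelium and surrounds muscle cells and vessels. In the gut wall, epithelium, smooth muscle and leukocytes carry partly different sets of chains, and the genes are grouped here by that use.

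Of the 39 genes, 32 had a probe detected on at least 3 of the 6 arrays and were tested, and 28 of these were detected on all 6. Itga2, Itga7 and Lama4 were among the 4 that passed this filter with fewer arrays. Of the other 7, Itgam, Itgb1bp2, Itgb2l and Nmrk2 were detected on no array, Itga5 and Itgb3 on 2 arrays and Lamc3 on 1. With imatinib 2 of the 32 fell, none rose and 30 did not pass the threshold, a limma p of 0.05 after Benjamini-Hochberg adjustment over all 14713 genes. The 2 called genes were the RGD-binding chain gene Itgav and the leukocyte chain gene Itgal. They are 6.25% of the 32, beside 1.58% of all genes tested that were called in either direction and 1.05% called lower. In 12 of the 32 genes (37.5%), 9 lower and 3 higher, the imatinib arrays lay apart from the vehicle arrays. The same held for 31.9% of all genes tested (14.5% lower and 17.4% higher), near the share of the 32 over both directions. By direction the lower share of the 32 was above and the higher share below that of all genes, which was not tested. An adjusted p under 0.10 was reached by 10 of the 32 (31.2%), 7 lower and 3 higher, beside 11.3% of all genes. At an unadjusted limma p under 0.05 there were 13 of the 32 (40.6%), beside 26.4% of all genes. The median log2 change of the 32 was 0.14 and that of all genes 0.04. Neither call held without vehicle 1, vehicle 3, imatinib 1, imatinib 2 or imatinib 3. Without vehicle 1, vehicle 3, imatinib 1 or imatinib 3, 0 of all genes tested were called, so the loss there was not particular to these genes. The fit without imatinib 2 called 287 of all 14378 genes tested, among them Itga2b. There Itgav and Itgal did not pass (limma adjusted p = 0.051 and 0.0604). Without vehicle 2 there were 10 calls among these genes, beside 1355 of all 14462 genes tested.

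**Figure D1:**
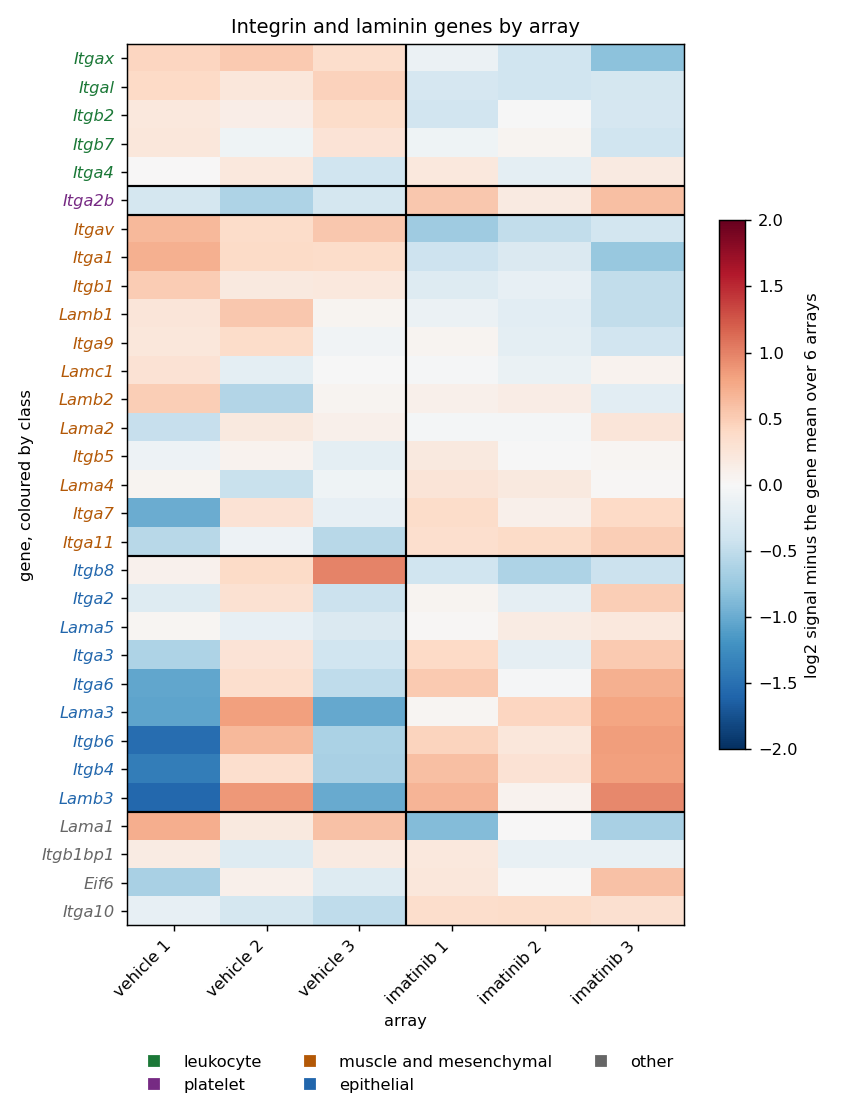
Log2 signal of the tested genes reported by name (rows, names coloured by class) on the 6 arrays (columns), each minus its mean over the arrays, on a colour scale from -2 to 2. The leukocyte rows Itgax, Itgal and Itgb2 are above their means on all 3 vehicle arrays, while most epithelial rows are lowest on vehicle 1.

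**Figure D2:**
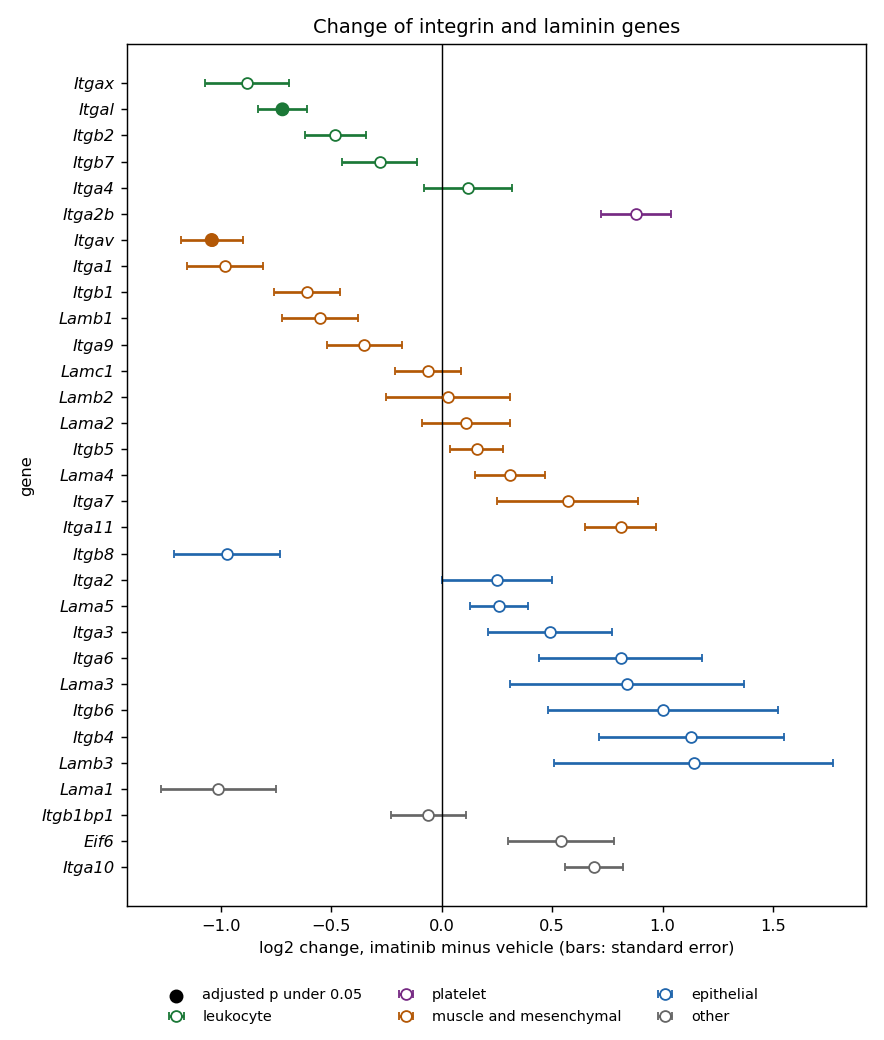
Log2 change with imatinib of the tested genes reported by name (points) with its standard error (bars), grouped by class. Filled points mark Itgal and Itgav, the genes with an adjusted p under 0.05, and open points those that did not pass.

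Among the receptors for RGD ligands, Itgav fell on the probe tested. Itgav encodes the alpha V chain, which pairs with several beta chains to bind vitronectin, fibronectin and the latent form of TGF-beta. Its log2 signal was 7.55, 7.27 and 7.44 on the vehicle arrays and 6.19, 6.40 and 6.53 on the imatinib arrays. The groups did not overlap, and the gap between them was larger than the spread within either. Itgav thus fell 2.06-fold, from 7.42 ± 0.14 to 6.37 ± 0.17 (SD, n = 3 arrays; log2 change -1.04 ± 0.14 SE, limma adjusted p = 0.0411). Only the brightest of the kept probes of Itgav showed the fall. The other 2 changed by -0.02 and -0.10 and their groups overlapped. They were near background, at 4.9 to 5.7 (detected on 5 arrays) and 4.7 to 5.4 (4 arrays), where a fall is hard to see. With the mean of the kept probes the change was -0.39 (limma adjusted p = 0.158).

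Of the beta partners of alpha V, Itgb3 was detected on too few arrays to be tested and the 4 tested, Itgb1, Itgb5, Itgb6 and Itgb8, did not pass. Itgb1, the beta chain shared by the largest family of matrix receptors, had log2 signals of 9.07, 8.76 and 8.77 with vehicle and 8.30, 8.40 and 8.06 with imatinib. The highest imatinib array was below the lowest vehicle array, with a log2 change of -0.61 ± 0.15 (SE, limma adjusted p = 0.0765). Its second kept probe changed by -0.65. Itgb8, which with alpha V binds latent TGF-beta, had 5.94, 6.23 and 6.85 with vehicle and 5.45, 5.23 and 5.43 with imatinib. These groups did not overlap either, and the change was -0.97 ± 0.24 (SE, adjusted p = 0.0779). Itgb5, a vitronectin receptor chain, showed overlapping groups, from 10.75 to 11.01 with vehicle and 10.94 to 11.14 with imatinib (log2 change 0.16, 95% interval -0.14 to 0.45). Itgb6, the epithelial partner, is given with the epithelial genes. Itga9, which pairs with Itgb1 and binds tenascin, changed by -0.35 ± 0.17 (SE, adjusted p = 0.246) on a probe whose deposited row has a clone name that the annotation ties to Itga9, and by -0.25 on the probe of the row named for the gene.

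Promoter sequences are shown for 3 of the alpha and beta chains whose imatinib arrays lay below the vehicle arrays, Itgav, Itgb1 and the leukocyte chain Itgax, so that the stretch upstream of each start can be read beside its values. RefSeq (GRCm38.p6) has a promoter entry in the table used here for 25 of the 39 genes, 250 bases before to 50 after the start. Capitals mark, on either strand, the GC box GGGCGG, the core GAGGAA bound by the myeloid factor PU.1, and the AP-1 motif TGANTCA. None of these matches overlap one another.
Itgav, chr2:83724147-83724446, plus strand: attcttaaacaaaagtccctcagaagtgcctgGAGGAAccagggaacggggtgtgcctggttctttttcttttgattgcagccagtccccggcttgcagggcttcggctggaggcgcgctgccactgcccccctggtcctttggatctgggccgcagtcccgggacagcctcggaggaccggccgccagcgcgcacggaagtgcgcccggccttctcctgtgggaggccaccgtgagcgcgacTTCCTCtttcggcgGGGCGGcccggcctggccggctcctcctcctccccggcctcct
Itgb1, chr8:128685404-128685703, plus strand: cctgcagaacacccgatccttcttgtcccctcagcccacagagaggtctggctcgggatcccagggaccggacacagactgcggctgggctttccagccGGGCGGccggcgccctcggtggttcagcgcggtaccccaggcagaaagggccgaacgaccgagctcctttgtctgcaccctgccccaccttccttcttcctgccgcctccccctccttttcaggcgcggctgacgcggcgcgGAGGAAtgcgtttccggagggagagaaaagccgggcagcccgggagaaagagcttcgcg
Itgax, chr7:128129300-128129599, plus strand: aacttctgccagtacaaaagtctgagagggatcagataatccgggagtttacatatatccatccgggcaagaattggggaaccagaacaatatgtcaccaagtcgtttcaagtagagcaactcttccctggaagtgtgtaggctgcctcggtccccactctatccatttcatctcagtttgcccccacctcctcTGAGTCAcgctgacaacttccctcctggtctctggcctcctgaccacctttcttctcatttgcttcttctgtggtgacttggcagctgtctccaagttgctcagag
The Itgav window holds 1 GC box and 2 PU.1 cores, the Itgb1 window 1 GC box and 1 PU.1 core, and the Itgax window 1 AP-1 motif and neither of the others. Over all 32851 promoters in the table, 35.7% hold the GC box, 28.3% the PU.1 core and 7.81% the AP-1 motif. Among the 28 promoter windows of the 25 genes, 13 hold the GC box, 15 the PU.1 core and 3 the AP-1 motif. A match of letters is a description of the window and no evidence that a factor binds there.

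Among the leukocyte chains Itgal fell, and 4 of the 5 tested genes had a lower mean with imatinib. Itgal encodes the alpha chain of LFA-1, the receptor by which lymphocytes bind ICAM molecules. Its log2 signal was 6.48, 6.31 and 6.55 on the vehicle arrays and 5.75, 5.69 and 5.73 on the imatinib arrays. The imatinib arrays were close to one another and below every vehicle array. Itgal fell 1.65-fold, from 6.45 ± 0.12 to 5.73 ± 0.03 (SD, n = 3 arrays; log2 change -0.72 ± 0.11 SE, limma adjusted p = 0.0454). Itgb2, the beta chain that Itgal, Itgam and Itgax share, had 7.66, 7.59 and 7.82 with vehicle and 7.07, 7.45 and 7.12 with imatinib, without overlap. The log2 change was -0.48 ± 0.14 (SE, limma adjusted p = 0.111).

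Itgax, the alpha chain CD11c of dendritic cells and some macrophages, had log2 signals of 7.54, 7.63 and 7.46 with vehicle and 6.99, 6.71 and 6.29 with imatinib. All imatinib arrays were lower and they were more spread than the vehicle arrays (log2 change -0.88 ± 0.19 SE, limma adjusted p = 0.0654). Itgb7, the beta chain of the gut-homing receptor, had 8.25, 7.93 and 8.30 with vehicle and 7.94, 8.08 and 7.63 with imatinib, and the groups overlapped (adjusted p = 0.326). Its alpha partner Itga4 had 5.85, 6.05 and 5.45 with vehicle and 6.05, 5.65 and 6.02 with imatinib, also overlapping (adjusted p = 0.708). Itgam, the CD11b chain of macrophages and neutrophils, was detected on no array.

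**Figure D3:**
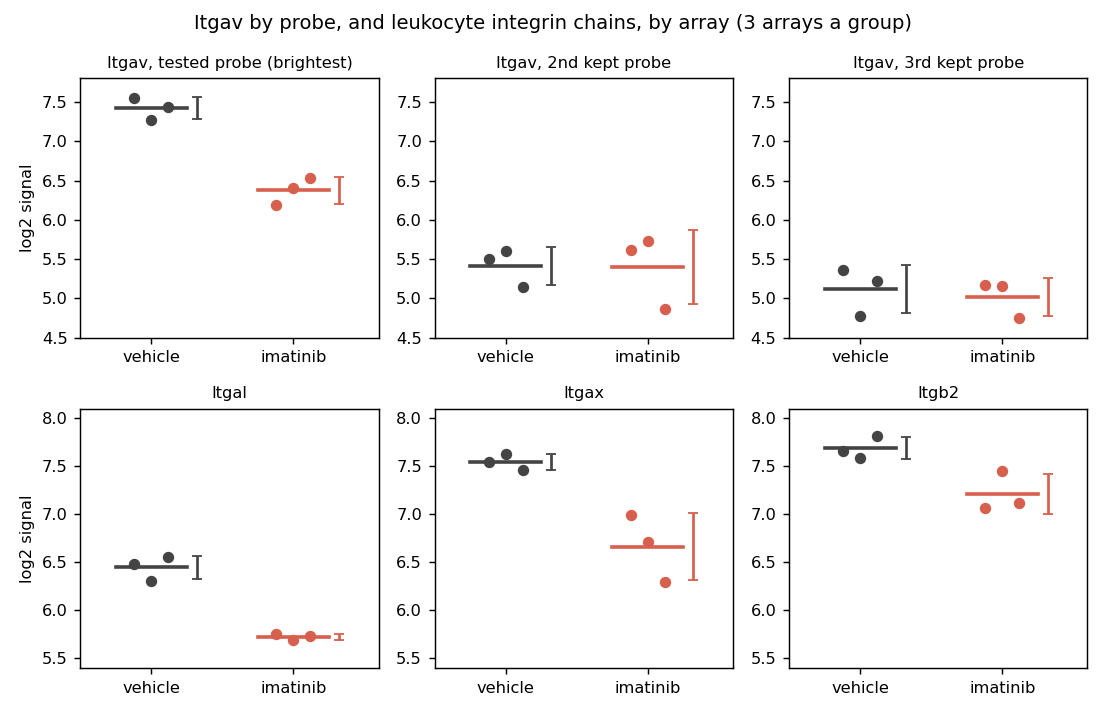
Log2 signal on each array (points, 3 per group) with the group mean (line) and SD (bar). In the upper row the tested Itgav probe separates the groups and the 2 other kept probes, which are near background, do not. In the lower row Itgal, Itgax and Itgb2 lie lower on all 3 imatinib arrays.

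Marker lists of leukocytes are set beside these chains. Of 8 markers of all leukocytes, 6 had a lower mean with imatinib, with a median change of -0.31. None passed by limma, and 5 had an unadjusted p under 0.05, not all of them lower, beside 26.4% of all genes tested. The groups did not overlap in 4 that were lower and 1 that was higher, beside 14.5% lower and 17.4% higher of all genes. The log2 of the summed unlogged signals of the 8 markers was 14.06 to 14.24 with vehicle and 13.84 to 13.99 with imatinib. Sums of the other lists are given in the same way, and in each the brightest genes weigh most. All 5 tested T cell markers had a lower mean (median -0.81, none passed, 4 with an unadjusted p under 0.05) and their summed signal was 11.21 to 11.28 with vehicle and 10.15 to 10.75 with imatinib, with Cd4 detected on no array. The 4 tested B cell markers had a higher mean, with Cd79a passing, and summed to 7.87 to 8.56 with vehicle and 9.28 to 9.90 with imatinib. Of the 6 macrophage markers 4 had a lower mean and none passed, with sums of 12.53 to 12.77 and 11.95 to 12.55. Neutrophil markers summed to 7.05 to 7.89 with vehicle and 8.25 to 12.62 with imatinib, highest on imatinib 3. Of 6 markers 3 were tested, and Ngp and Ltf were detected on no array. S100a8 and S100a9, each detected on 1 vehicle and 3 imatinib arrays, passed the filter through the imatinib group, so this sum is no test of a rise. The part of these cell types in the change of Itgal, Itgax and Itgb2 was not tested.

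The platelet integrin chain Itga2b was higher with imatinib without passing. Itga2b encodes the alpha chain of the fibrinogen receptor of platelets and megakaryocytes. Its log2 signal was 5.38, 5.11 and 5.37 with vehicle and 6.26, 5.90 and 6.33 with imatinib. Every imatinib array exceeded every vehicle array (log2 change 0.88 ± 0.16 SE, limma adjusted p = 0.0534), and the gene passed in 7 of 21 alternative fits, among them median scaling (1 of these genes called higher and 2 lower) and no normalization (1 higher and 1 lower). Its other probe was detected on no array. With the deposited gene-level and processed values the gene changed by 0.34 and 0.19 and did not pass (limma adjusted p = 0.0961 and 0.148). Its partner Itgb3 was detected on 1 vehicle and 1 imatinib array only. Among 7 platelet markers, 3 were detected on no array, Gp1ba and Gp6 among them, and only Pf4, a chemokine of platelet granules, was tested, with 11.60, 11.14 and 11.65 with vehicle and 10.32, 10.94 and 11.17 with imatinib.

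Of the collagen receptors 1 had a lower and 3 a higher mean with imatinib, none of them past the threshold. Itga1, a collagen-binding chain abundant on smooth muscle, had log2 signals of 7.99, 7.67 and 7.65 with vehicle and 6.86, 6.99 and 6.52 with imatinib. The groups did not overlap (log2 change -0.98 ± 0.17 SE, limma adjusted p = 0.0523), and the gene passed in 9 of 21 alternative fits. Itga11, a chain for fibrillar collagen on fibroblasts, had 6.46, 6.91 and 6.46 with vehicle and 7.34, 7.40 and 7.50 with imatinib. It was higher on all imatinib arrays (0.81 ± 0.16 SE, adjusted p = 0.057), as was Itga10, the collagen-binding chain known from cartilage, with 6.36, 6.17 and 6.01 against 6.87, 6.90 and 6.84 (0.69 ± 0.13 SE, adjusted p = 0.0539). Itga2, the collagen receptor of epithelium and platelets, was detected on 1 vehicle and 2 imatinib arrays, and its groups overlapped (adjusted p = 0.547). Of the 4 fibroblast markers 3 had a higher mean and none passed (1 with an unadjusted p under 0.05, beside 26.4% of all genes). They summed to 11.81 to 13.69 with vehicle and 13.59 to 13.71 with imatinib, and their part in the values of Itga11 was not tested. All of these alpha chains pair with Itgb1, whose values are given above.

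**Figure D4:**
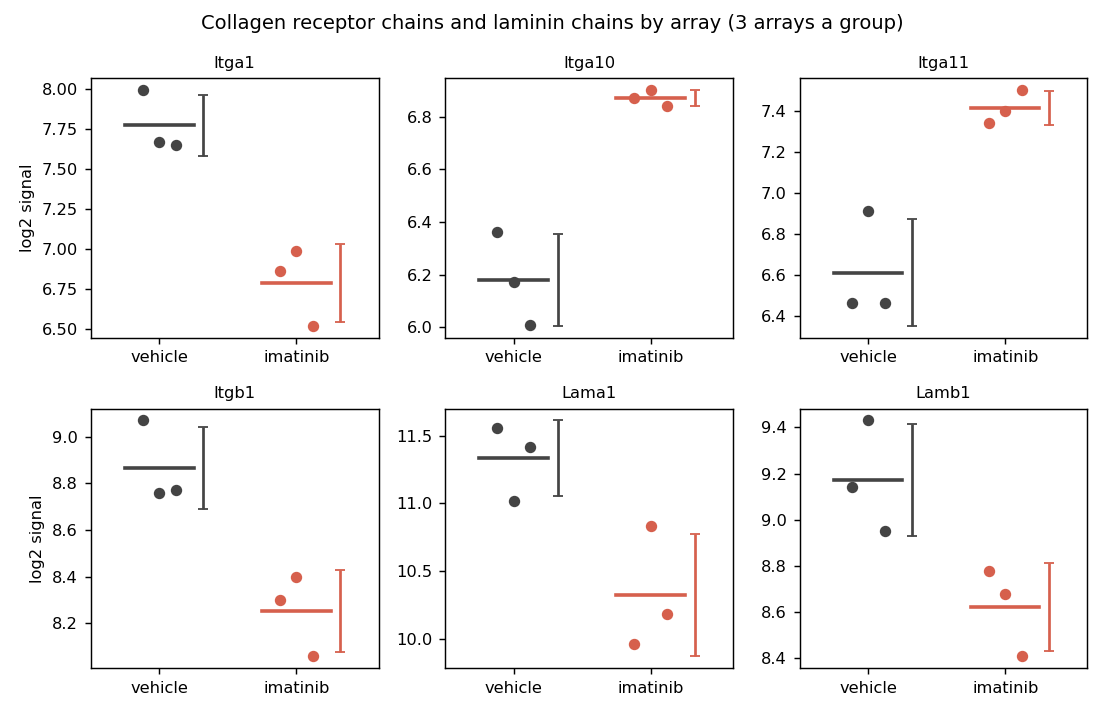
Log2 signal on each array (points, 3 per group) with the group mean (line) and SD (bar), each panel on its own axis, which does not start at 0. Itga1, Itgb1, Lama1 and Lamb1 lie lower and Itga10 and Itga11 higher on all 3 imatinib arrays, and none of the 6 genes passed the threshold.

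Among the laminin chains none passed. Lama1, the alpha chain of the laminin of the embryo, had log2 signals of 11.56, 11.02 and 11.42 with vehicle and 9.96, 10.83 and 10.18 with imatinib. All imatinib arrays were lower, with imatinib 2 nearest to the vehicle arrays (log2 change -1.01 ± 0.26 SE, limma adjusted p = 0.0864). Lamb1, a beta chain of many tissues, had 9.14, 9.43 and 8.95 against 8.78, 8.68 and 8.41, again without overlap (-0.55 ± 0.17 SE, adjusted p = 0.113). Lamc1, the gamma chain with which most laminins are built, showed overlapping groups, with a log2 change of -0.06 and a 95% interval of -0.43 to 0.31. Its other kept probe changed by -0.38. Lamb2, a beta chain of muscle and vessel basement membranes, had 10.73, 9.64 and 10.29 on the vehicle arrays, a range that enclosed the imatinib arrays at 10.02 to 10.38 (95% interval of the change -0.66 to 0.71). The muscle chain Lama2 and the vessel and muscle chain Lama4 changed by 0.11 and 0.31, with overlapping groups (adjusted p = 0.76 and 0.257).

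Over the 12 tested muscle and mesenchymal genes, Itgav fell and 11 did not pass, 6 had a higher and 6 a lower mean, and the median change was -0.02. The laminin receptor of muscle, Itga7, had log2 signals of 4.80, 6.08 and 5.63 with vehicle and 6.16, 5.90 and 6.19 with imatinib. Vehicle 1 was the low array, below detection, and the groups overlapped (limma adjusted p = 0.293). Of the 12 genes 2 (16.7%) were lowest on vehicle 1 of the 6 arrays, beside 20.3% of all genes tested. All 9 tested smooth muscle markers were lowest there. The log2 of their summed signals was 13.42 to 14.64 with vehicle and 14.42 to 14.98 with imatinib. None of them passed by limma (1 had an unadjusted p under 0.05, beside 26.4% of all genes), and Cnn1 was detected on no array. Itga1, Itgb1 and Itgav were instead highest on vehicle 1.

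The epithelial genes varied widely within the vehicle group. Of 10 tested genes 9 had a higher mean with imatinib, and none passed by limma. An unadjusted p under 0.05 was reached by 2, Itgb4 with a higher and Itgb8 with a lower mean, beside 26.4% of all genes. The median log2 change was 0.83. Itgb4, the beta chain of hemidesmosomes, which anchor epithelium to laminin, had log2 signals of 8.70, 10.42 and 9.43 with vehicle and 10.68, 10.37 and 10.91 with imatinib. Vehicle 1 was far below the rest and vehicle 2 lay among the imatinib arrays (log2 change 1.13 ± 0.42 SE, limma adjusted p = 0.159). Its alpha partner Itga6 had 7.20, 8.58 and 7.73 with vehicle and 8.77, 8.22 and 8.95 with imatinib, again with vehicle 2 among the imatinib arrays (adjusted p = 0.225).

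Lama3 and Lamb3, chains of the epithelial laminin that hemidesmosomes bind, followed the same arrays. Lamb3 had log2 signals of 7.15, 9.58 and 7.71 with vehicle and 9.39, 8.78 and 9.68 with imatinib. Lama3 had 6.87, 8.75 and 6.90 against 7.97, 8.36 and 8.71, with vehicle 2 the highest array of all. In both genes vehicle 1 was lowest and vehicle 2 lay inside or beside the imatinib range, and neither passed (limma adjusted p = 0.286 and 0.343). Itgb6, the RGD-binding beta chain of epithelium, ranged from 7.01 on vehicle 1 to 9.17 on vehicle 2, and from 8.76 to 9.36 on the imatinib arrays. Itga3, a laminin receptor of epithelium, ranged from 8.76 to 9.64 and from 9.20 to 9.89. Lama5, the alpha chain of mature basement membranes, had 6.20, 5.99 and 5.87 with vehicle and 6.18, 6.32 and 6.36 with imatinib, with vehicle 1 among the imatinib arrays (limma adjusted p = 0.242). Without vehicle 2 the changes of Itgb4, Lamb3, Itgb6 and Lama3 passed, at 1.58, 1.86, 1.58 and 1.47 (limma adjusted p from 0.0368 to 0.044). In that fit 1355 of all 14462 genes tested were called. Without vehicle 1 these changes were 0.72, 0.63, 0.49 and 0.52 and did not pass, and 0 of all genes were called.

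Vehicle 1 was the lowest of the 6 arrays in 7 of the 10 epithelial genes, beside 20.3% of all genes tested. In those genes, among them Itga3, Itga6, Itgb4, Itgb6, Lama3 and Lamb3, vehicle 3 lay between vehicle 1 and vehicle 2. This order of the vehicle arrays, picked out after the values were seen, held for 19.7% of all genes, for all 10 epithelium markers and for all 9 tested smooth muscle markers, so it was not particular to epithelium. The median ratio of the vehicle SD to the imatinib SD was 2.31 over the epithelial genes and 1.09 over all genes. Over marker lists it was 4.51 for epithelium, 4.32 for fibroblasts, 2.30 for mesothelium, 2.18 for smooth muscle and 2.02 for endothelium. The log2 of the summed signals of the epithelium markers was 12.74 to 15.13 with vehicle and 14.73 to 15.09 with imatinib. For the epithelial integrins and laminins it was 10.62 to 12.16 and 11.82 to 12.44. Itgb8 went the other way and Itga2 and Lama5 did not share the order. The part of epithelium, smooth muscle and the other cell types in the values of these genes was not tested.

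**Figure D5:**
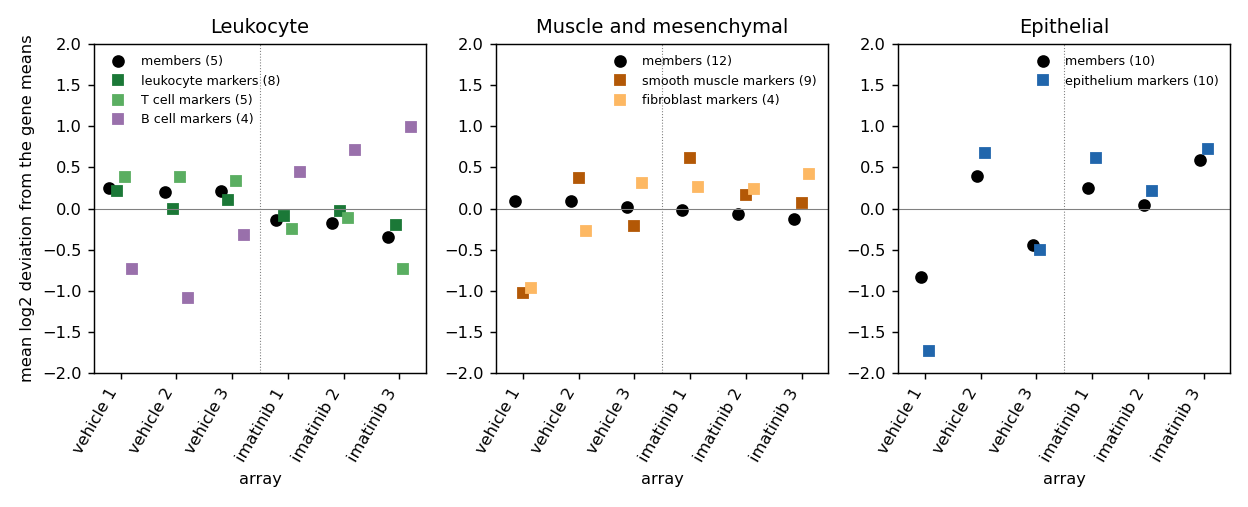
Mean log2 deviation from the gene means on each array for the leukocyte, the muscle and mesenchymal and the epithelial genes (black circles), beside marker lists (coloured squares), with the number of genes in brackets. The epithelial genes lie at -0.83 on vehicle 1, 0.40 on vehicle 2 and 0.59 on imatinib 3, near the pattern of the epithelium markers, and the leukocyte genes at 0.20 to 0.25 with vehicle and -0.34 to -0.14 with imatinib.

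The classes can be set side by side. The median log2 change was -0.48 over 5 leukocyte genes, -0.02 over 12 muscle and mesenchymal genes and 0.83 over 10 epithelial genes, beside 0.04 over all genes tested. In the leukocyte class 3 of 5 genes were lower without overlap of the groups, in the muscle and mesenchymal class 4 of 12 were lower and 1 higher, and in the epithelial class only Itgb8 was lower and none higher, beside 14.5% of all genes tested that were lower and 17.4% that were higher without overlap. The difference between classes was not tested. Of the 4 tested genes outside these classes, besides Lama1 and Itga10, Eif6, a factor of ribosome assembly once named for binding Itgb4, had 10.59, 11.34 and 10.98 with vehicle and 11.47, 11.23 and 11.82 with imatinib (limma adjusted p = 0.21). Itgb1bp1, which binds the tail of the beta 1 chain and restrains its activation, had 9.25, 8.83 and 9.26 against 9.29, 8.94 and 8.93 (adjusted p = 0.846).

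The proteins that connect integrins to actin did not pass. Of 32 listed genes of the adhesion complex 30 were tested, 12 with a higher and 18 with a lower mean, none past the threshold, with a median change of -0.13. At an unadjusted p under 0.05 there were 10 of the 30 (33.3%), beside 26.4% of all genes. Bcar1, the scaffold p130Cas, had 8.62, 8.54 and 8.52 with vehicle and 8.08, 8.13 and 7.86 with imatinib (log2 change -0.54 ± 0.12 SE, limma adjusted p = 0.0676). Cav1, the caveolin that associates with integrins, had 10.56, 11.24 and 11.38 against 11.96, 11.85 and 12.13 (0.92 ± 0.23 SE, adjusted p = 0.0819). The kindlins, which bind beta tails and activate integrins, are given too, chosen after their values were seen. Fermt3 of blood cells changed by -0.48 ± 0.12 (SE, adjusted p = 0.0854), Fermt2 of mesenchymal cells by -0.16 ± 0.18 (adjusted p = 0.576) and Fermt1 of epithelium by 1.44 ± 0.57 (adjusted p = 0.178), with Fermt1 lowest on vehicle 1.

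Among the ligands 1 gene passed. Jam2, a junction protein of endothelium that binds leukocyte integrins, rose 2.11-fold, from 6.83, 6.94 and 6.94 with vehicle to 7.87, 7.74 and 8.32 with imatinib (log2 change 1.08 ± 0.17 SE, limma adjusted p = 0.0471). The call was lost without vehicle 1, vehicle 3, imatinib 1 or imatinib 3 (adjusted p from 0.11 to 0.181), where 0 of all genes tested were called. With the deposited gene-level and processed values the changes were 0.53 and 0.34 and did not pass (limma adjusted p = 0.0553 and 0.0719). Those fits called 382 and 385 of all genes. The call held in 12 of 21 alternative fits. Jam2 was 1 of 8 tested genes in the list of leukocyte integrin ligands. Madcam1, detected on no vehicle and 3 imatinib arrays, passed the filter through the imatinib group alone, and of the other 7 genes 4 had a higher and 3 a lower mean. The 4 tested endothelium markers were higher without overlap, as were 17.4% of all genes tested, with Cldn5 passing, and summed to 9.10 to 9.36 with vehicle and 10.01 to 10.29 with imatinib, with Kdr detected on no array. The call of Cldn5, like that of the B cell marker Cd79a, held without vehicle 2 and was lost without any other array. Of the fits with 1 array left out that lost the calls of Cldn5 and Cd79a, the one without imatinib 2 called 287 of all 14378 genes tested. The rest called 0. The part of endothelium in the rise of Jam2 was not tested. Icam1, the ligand of Itgal with Itgb2, had 11.23, 10.75 and 10.83 against 9.31, 10.17 and 9.55, lower on all imatinib arrays (-1.26 ± 0.25 SE, adjusted p = 0.059).

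None of 17 tested genes of basement membrane and matrix ligands passed by limma, and 7 had an unadjusted p under 0.05, beside 26.4% of all genes. There were 5 higher and 12 lower means, and the median change was -0.37. Spp1, which encodes osteopontin, an RGD ligand of alpha V receptors, had 6.98, 6.37 and 6.57 with vehicle and 10.31, 8.72 and 11.67 with imatinib. All imatinib arrays were higher and varied by more than the vehicle arrays (log2 change 3.59 ± 0.70 SE, limma adjusted p = 0.0571). Hspg2, the perlecan core protein of basement membranes, had 11.77, 11.41 and 11.47 against 11.01, 10.88 and 10.78, without overlap (-0.66 ± 0.14 SE, adjusted p = 0.0631).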

How the data were processed

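For 45281 probes the deposited scanner table lists an intensity, a bead number, a standard error and a detection p-value, without normalization between arrays per the file headers. The deposited gene-level table holds log2 values, also not normalized, and another deposited table the authors' processed log2 values, all columns with a median of 5.53. Partek is named in the submitters' processing notes. The scanner software and genome build are not given in the sources used here. Groups came from the sample titles, and probe columns were tied to samples by their description.

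Probes were linked to gene-level rows where the log2 of the mean signal of neighbouring probes equalled the row on all 6 arrays, within 8e-06 (6.2e-05 where the log2 was at least 10). All 31492 rows matched exactly 1 run, and 4 rows with repeated names were left out. Symbols came from the platform annotation, updated through RefSeq (GRCm38.p6). Lamb1, Eif6 and Nmrk2 are listed in the files as LAMB1-1, ITGB4BP and ITGB1BP3.

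Intensity was background-corrected by normexp from the detection p-values and quantile normalized (limma 3.58.1 in R 4.3.3, neqc, offset 16, which makes folds of dim genes too small). Signals are on this log2 scale. The 21395 probes detected (p under 0.05) on 3 or more arrays were kept, and the brightest of them stood for each of 14713 genes. Levels of different probes cannot be compared. Groups were compared with lmFit and eBayes, an adjusted p of 0.05 being the threshold. The procedure was tested on simulated data with noise drawn independently for each probe and array. Such data leave out shifts that many genes share on an array, so the test does not cover them. The number of arrays limits the precision, and an exact permutation test of 3 against 3 arrays cannot give a p under 0.1.

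The genes, classes and lists were chosen with earlier results of these data known. Some genes enter the counts and are not reported here by name. Of the rest, all members could be named: each called one and, per class, up to 4 others with the smallest p, are given with all values, and of the partner lists the called genes and up to 2 with the smallest p, with Fermt1, Fermt2 and Fermt3 added. All values of Itga7, Lama3, Lama5 and Lamb3 are given beyond this rule. The alternatives covered background, normalization, offset, filter, probe use, variance model, array weights, replicate block, other tables, arrays left out and threshold. Replicate numbers gave no sign of pairing the samples: deviations of same-numbered arrays correlated at -0.112, -0.308 and 0.019. Those of differently numbered arrays correlated at -0.199 to 0.248. With 3 arrays a group these values cannot exclude a pairing.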

Additional observations from a re-analysis of the deposited data

How the results depend on the processing

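Of the 39 genes, 2 were called among those tested, and 232 of all genes. The call count of these genes was within 1.5 times of that under no background correction (Itga1 and Itgav), median scaling (where Itga2b was called higher too), no normalization (Itga2b higher and Itgav lower), detection on all 6 arrays, offset 50, an intensity trend, robust eBayes and the deposited gene-level table (Itga1 and Itgal). It was 0 by limma with no detection filter (14 at an unadjusted p under 0.05), 5 with a detection p under 0.01, 4 with the mean of the kept probes, 1 with the deposited processed table, 26 with array weights, whose fit stopped before its convergence tolerance, 10 at an adjusted p of 0.10 and 0 without vehicle 1 and imatinib 3 together (9 at an unadjusted p under 0.05). Leaving out each array in turn gave 0 to 10, with 12 to 14 at an unadjusted p under 0.05 where it was 0. Over all genes the count was 0 with no detection filter, 408 with the mean of the kept probes, 355 with offset 50, 429 with an intensity trend, 7585 with array weights, 382 and 385 with the deposited gene-level and processed tables, 0 without vehicle 1 and imatinib 3, 1668 at an adjusted p of 0.10, and 0 to 1355 with each array left out. With the replicate block 0 of these genes and 0 of all genes were called by limma (12 of the 32 at an unadjusted p under 0.05). Whether the numbers pair the samples is not known. Itgav was called in 10 of 21 alternative fits, with changes from -1.14 to -0.26, and Itgal in 9, from -0.81 to -0.36. The sign turned in 5 genes with changes near 0. Itga4 was at -0.015 and -0.0089 in the deposited gene-level and processed tables and ranged from -0.043 to 0.256 with 1 array left out. Itgb1bp1 was at 0.0724 without vehicle 1 and imatinib 3, and at -0.2005 to 0.0119 with 1 array left out. Lama2 was at -0.0781 with array weights, -0.193 without vehicle 1 and imatinib 3, and -0.0984 to 0.2305 with 1 array left out. Lamb2 was at -0.0468 with median scaling, -0.065 with no normalization, -0.0082 with array weights, and -0.2635 to 0.281 with 1 array left out. Lamc1 was at 0.0172 without vehicle 1 and imatinib 3, and -0.171 to 0.0658 with 1 array left out. The cause was not tested. In the other 27 genes no alternative turned the sign. Genes near background, such as Itgb3, Itga5 and Itgam, are limited by signal.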
